A study of Rattus norvegicus with 4 samples.

Results

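The genes described here are the intracellular iron sensors Aco1, Ireb2 and Fbxl5, the hepcidin regulators Hfe and Tfr2, the hepcidin gene Hamp, and the ferroxidase genes Cp and Heph. These 8 genes were taken by name, and their probes were found through the RefSeq accession that each array probe carries. Probes were found for 7 of the 8 genes, 10 probes in all, out of 16581 named genes and 45598 probes on the array. No probe accession matched Fbxl5, which is therefore not measured here. Gene expression was measured in NR8383 cells, a macrophage line derived from the lung lavage of a normal rat, after 20 passages. All 4 cultures, called biological replicates in the design, had received Fe2O3 particles (NRCWE018) at 2 µg/mL and were exposed for 4 h. RNA of each was hybridised to 1 single-colour array, all on 1 slide, and a culture cannot be told apart from its slide position. The study also had unexposed control cultures, which were not analysed here, so every value below describes exposed cells and none is an effect of the particles.

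Cells sense iron through iron regulatory proteins, which bind hairpins called iron-responsive elements in the mRNAs of ferritin, the transferrin receptor and ferroportin. IRP1, encoded by Aco1, is a cytosolic aconitase when it holds an iron-sulfur cluster and an RNA-binding protein when it does not. IRP2, encoded by Ireb2, is removed by the proteasome when iron is plentiful, through the ubiquitin ligase subunit FBXL5. At the level of the body, the liver hormone hepcidin, encoded by Hamp, makes cells degrade ferroportin, the exporter through which macrophages return iron to plasma. HFE and TFR2 act upstream of hepcidin in hepatocytes, and the copper enzymes ceruloplasmin (Cp) and hephaestin (Heph) oxidise the iron that ferroportin releases.

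The mRNA of most measured members was present. Of the 7 measured genes, 5 (Aco1, Ireb2, Hfe, Tfr2 and Cp) were well above background on all 4 arrays, Heph on 3 of the 4, and Hamp on none. The same held for 50.5% of all named genes. By probe, every array showed 7 of the 10 above background, some arrays showed 2 more, and none showed the remaining probe. Well above background is the mark that the image analysis software gives each spot. Levels are log2 of the processed signal minus the 75th percentile of that array, given as mean ± SD over n = 4 arrays. Probes differ in how brightly they bind, so the levels of different probes are not set against each other. The array reads mRNA, and it does not show how much of a sensor protein was active. In RNA from whole cultures, fewer cells with a transcript and less of it per cell cannot be told apart.

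The promoter windows of 3 members are shown because they differ in composition, and that of Hamp carries letters of routes examined below. They are RefSeq sequences of the GRCr8 build, 250 bases before to 50 after the annotated start, of the sensor gene Aco1 (chr5:60055645-60055944, plus strand), the hormone gene Hamp (chr1:95300222-95300521, minus strand) and the ferroxidase gene Cp (chr2:104368420-104368719, plus strand). Capitals mark GGGCGG (the GC box), TATAAA, TTCNNNGAA (the spacing bound by STAT factors) or GGCGCC (the core of the BMP-responsive element known from the human hepcidin promoter), each searched on both strands.
Aco1: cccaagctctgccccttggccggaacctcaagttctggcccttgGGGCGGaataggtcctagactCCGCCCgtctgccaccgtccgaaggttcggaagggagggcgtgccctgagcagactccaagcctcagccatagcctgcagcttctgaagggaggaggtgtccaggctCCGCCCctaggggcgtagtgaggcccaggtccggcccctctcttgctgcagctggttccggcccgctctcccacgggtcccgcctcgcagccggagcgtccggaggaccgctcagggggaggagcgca
Hamp: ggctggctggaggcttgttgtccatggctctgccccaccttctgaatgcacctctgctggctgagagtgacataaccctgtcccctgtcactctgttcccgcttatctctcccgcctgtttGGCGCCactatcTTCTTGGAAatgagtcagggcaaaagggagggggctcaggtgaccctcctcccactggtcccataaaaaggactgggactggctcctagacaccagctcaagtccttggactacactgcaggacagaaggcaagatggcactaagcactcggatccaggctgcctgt
Cp: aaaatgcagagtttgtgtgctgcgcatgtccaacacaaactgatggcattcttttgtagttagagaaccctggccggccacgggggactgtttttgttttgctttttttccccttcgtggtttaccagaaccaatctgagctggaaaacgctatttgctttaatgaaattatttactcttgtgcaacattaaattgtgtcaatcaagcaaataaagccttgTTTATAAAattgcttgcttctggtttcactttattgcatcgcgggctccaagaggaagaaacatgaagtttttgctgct
The Hamp window held 1 TTCNNNGAA at -117 and 1 GGCGCC at -129 relative to the start, letters found in 2970 (8.87%) and 3688 of 33469 windows of the same length. The Aco1 window held 3 GC boxes, and 33.1% of all windows held at least 1. In the Cp window TATAAA and its reverse complement overlapped at -27 and -29, and 14.2% of windows held this motif. Windows were available for 7 of the 8 genes, Hfe being the exception. The windows of Ireb2 and Fbxl5 were rich in CpG, with 30 and 43 CpG pairs and observed over expected ratios of 1.06 and 1.07, against a median ratio of 0.392 over all windows. The ratio was 0.594 for Aco1, 0.575 for Cp, 0.391 for Tfr2, 0.214 for Heph and 0.165 for Hamp. These matches describe letters in a window and are no measurement of binding.

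Replicate 4 stood somewhat apart from the other arrays. Its 75th percentile of the processed signal was 756.5, against 984.3 to 1082 on the others, and 37.8% of its probes were well above background, against 40.2% to 41.2%. Outlier marks were on 1.62% of its spots and on 1.13% to 1.21% of those of the others. Without replicate 4, Heph joined the members above background on all remaining arrays, 6 in all. Of the 16581 named genes, 8644 were above background on those arrays. The limma test of spread described below was passed by 0 of the 6 members and by 22 of the 8644 genes. No spot was saturated, and none of the 10 member spots carried an outlier mark on any array. The cells had the mRNA of macrophages: 7 of 9 macrophage markers were above background on all arrays, and Marco and Adgre1 on none. For this and the marker lists below, the share of all named genes was 50.5% on all arrays and 43.0% on none. Because hepcidin, ceruloplasmin and TFR2 are known mainly from hepatocytes, markers of that cell type were examined too. Of 8 hepatocyte markers 0 were above background on all arrays, the transferrin gene Tf was above it on 1 array, and the other 7, including Alb, Apoa1 and Ttr, on none. The 6 lung epithelium markers were above background on none. Of the 3 measured lymphocyte markers Nkg7 was above background on all arrays, and of 5 fibroblast and endothelium markers Pecam1 and Cdh5 were.

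Aco1 was clearly expressed. Replicates 1 to 4 gave processed signals of 8204, 6677, 6555 and 6270, and levels of 2.94, 2.76, 2.60 and 3.05 (2.84 ± 0.20, SD, n = 4). Replicate 4 was highest and replicate 3 lowest, within a range of 0.45 on the log2 scale. Replicate 3 was lowest under each of the 6 scalings and background corrections, whereas with normexp background correction replicate 1 was highest.

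Ireb2 was close to the limit of detection. The signal of its probe was 36.9, 28.2, 46.5 and 40.9 on replicates 1 to 4, against a lowest signal of 20.7 to 23.7 among spots well above background on the same arrays. The level was -4.86, -5.12, -4.54 and -4.21 (-4.68 ± 0.40, SD, n = 4). Replicate 4 was highest and replicate 2 lowest under each of the 6 scalings and background corrections. The signal was 4.82 to 6.39 times the error that the software gave the spot, so differences of this size between arrays stand on few units of signal.

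**Figure D1:**
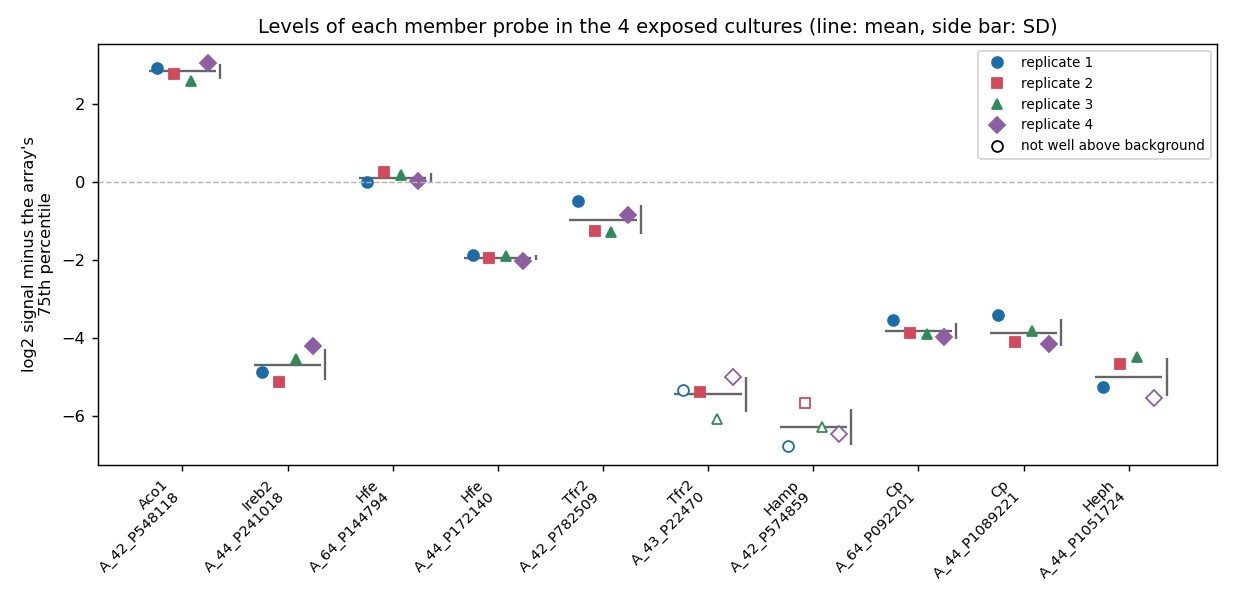
The level of each of the 10 member probes (log2 signal minus the 75th percentile of the array, vertical axis) in the 4 exposed cultures, with a line for the mean and a side bar for the SD; open symbols mark spots not well above background. Aco1 lay between 2.60 and 3.05, and the Hamp probe and 3 of the 4 spots of the second Tfr2 probe were not well above background.

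Hfe, which encodes a class I-like protein that pairs with beta-2-microglobulin and binds the transferrin receptor, was measured by 2 probes of the same accession. Probe A_64_P144794 had signals of 1073, 1179, 1227 and 771.0 and levels of 0.00, 0.26, 0.18 and 0.03 on replicates 1 to 4 (0.12 ± 0.12, SD, n = 4). Probe A_44_P172140 had signals of 292.8, 253.9, 288.9 and 185.7 and levels of -1.87, -1.96, -1.90 and -2.03 (-1.94 ± 0.07, SD, n = 4). Both probes were above background on every array, and their levels varied little between cultures, over ranges of 0.26 and 0.15. The probes put different replicates highest, replicate 2 by one and replicate 1 by the other. The SD between arrays was 0.858 and 0.457 times the mean error that the software gave a single spot. The same ratio was 2.61 for the brighter Tfr2 probe, 1.12 and 1.86 for the Cp probes, 1.52 for Ireb2 and 1.37 for Aco1. It sets separate cultures against the software's estimate of spot error. For the Aco1, Hfe and brighter Tfr2 probes that estimate was nearly a fixed share of the signal, which was 9.63 to 10.0 times the error. The ratio is therefore no comparison with a measured technical error.

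Tfr2 encodes the second transferrin receptor, a hepatocyte and erythroid sensor of transferrin-bound iron, and its 2 probes disagreed on whether it was above background. Probe A_42_P782509 had signals of 769.3, 411.8, 448.7 and 420.3 on replicates 1 to 4 and was well above background on all of them. Its level was -0.48, -1.26, -1.27 and -0.85 (-0.96 ± 0.38, SD, n = 4). Replicate 1 stood highest under each of the 6 scalings and background corrections, and replicates 2 and 3 were nearly equal. Probe A_43_P22470, of the same accession, had signals of only 26.7, 23.8, 16.2 and 23.7 and was above background on replicate 2 alone. Its measured levels were -5.33, -5.37, -6.06 and -5.00, of which only that on replicate 2 was above background, so no order of the replicates is read from them. Such disagreement was not rare: in 862 (23.6%) of the 3658 named genes that several probes measured, one probe was above background throughout and another was not.

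Hamp was not well above background on any array. Its only probe had signals of 9.92, 19.5, 14.0 and 8.64 on replicates 1 to 4, each below the lowest signal of any spot well above background on that array. The levels measured were -6.76, -5.66, -6.27 and -6.45, and the signal was 1.66 to 3.75 times its own error. The probe did pass the weaker mark of being positive and significant on all 4 arrays, as did every other member probe. Of all named genes, 59.0% carried that mark on all 4 arrays. Hepcidin mRNA was therefore not detectable at the stricter mark in these cultures, which does not show that it was absent.

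**Figure D2:**
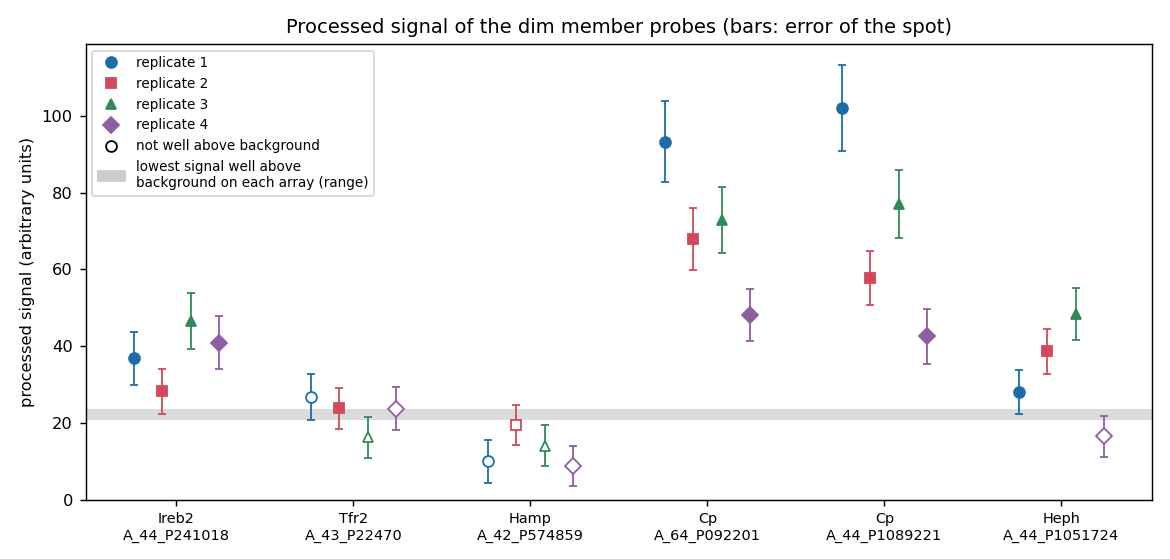
Processed signal (arbitrary units) of the 6 dim member probes on each array, with the error that the image analysis software gave the spot; the grey band spans the lowest signal well above background on the 4 arrays, 20.7 to 23.7. The 4 Hamp spots lie below the band, the Ireb2 and Cp spots above it, and Heph falls below it on replicate 4.

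Both ferroxidase genes were dim. Cp was measured by 2 probes of 1 accession, both above background on all arrays. Probe A_64_P092201 had signals of 93.3, 67.8, 72.9 and 48.1 and levels of -3.52, -3.86, -3.89 and -3.98 on replicates 1 to 4 (-3.81 ± 0.20, SD, n = 4). Probe A_44_P1089221 had signals of 102.0, 57.7, 77.0 and 42.6 and levels of -3.39, -4.09, -3.81 and -4.15 (-3.86 ± 0.35, SD, n = 4). The probes agreed that replicate 1 was highest and replicate 4 lowest, and disagreed on the order of replicates 2 and 3. With normexp background correction, replicate 4 was highest for the first probe and replicate 2 lowest for the second. Ceruloplasmin is known as a secreted plasma protein of the liver and, in an anchored form, as a surface ferroxidase of macrophages and astrocytes. The array does not separate these forms here.

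Heph, the membrane-bound ferroxidase known from intestinal cells, had signals of 28.0, 38.6, 48.4 and 16.4 on replicates 1 to 4. The spot on replicate 4 was not well above background. The level was -5.26, -4.67 and -4.48 on replicates 1 to 3, and on replicate 4 the measured value was -5.52. Replicate 3 was highest under 5 of the 6 scalings and background corrections, with the lowest measured value on replicate 4. With normexp the order turned, replicate 4 being highest and replicate 1 lowest. Because the spot on replicate 4 was not well above background, no order that includes replicate 4 is read.

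The spread between exposed cultures was tested for the 5 members above background on all 4 arrays. In limma, the variance of each gene between arrays was set against that of genes of like level, over all 8376 genes above background on all arrays. At an adjusted limma p of 0.05, 0 of the 5 members passed, and 16 of the 8376 genes (0.191%) did. An unadjusted limma p below 0.05 was found for 0 of the 5 members and for 482 of the 8376 genes. With 5 members, a count of 0 at such shares is no result about the members. Tfr2 came nearest, with an SD of 0.38 against 0.20 for genes of its level (limma, unadjusted p 0.0568, adjusted p 0.898), and 6.26% of all genes had a lower p. Its unadjusted limma p was below 0.05 with quantile normalization, cyclic loess, outlier spots kept, no filter on dim probes, or without replicate 4. It was not below 0.05 under any other alternative, among them normexp, the mean over probes and a constant prior. The adjusted p of Tfr2 stayed above 0.05 in all of them. Without replicate 1, its highest array, Tfr2 had an SD of 0.24 (limma adjusted p 0.980). The SD of Aco1 and Ireb2 exceeded that of genes of their level by ratios of 1.31 and 1.33, and the ratio was 0.686 for Hfe and 0.743 for Cp (limma adjusted p 0.995 each). The median ratio was 1.31 over the 5 members and 0.922 over all genes tested. When each probe was tested on its own, an alternative chosen after seeing the data, 0 of the 7 member probes passed, with the lowest limma adjusted p at 0.866 for Tfr2. Differences between cultures and differences between arrays both enter this spread. In simulated data the test recovered 61% of genes whose SD was raised 5-fold, and smaller rises were not simulated. A count of 0 therefore does not show that the members had no excess spread.

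**Figure D3:**
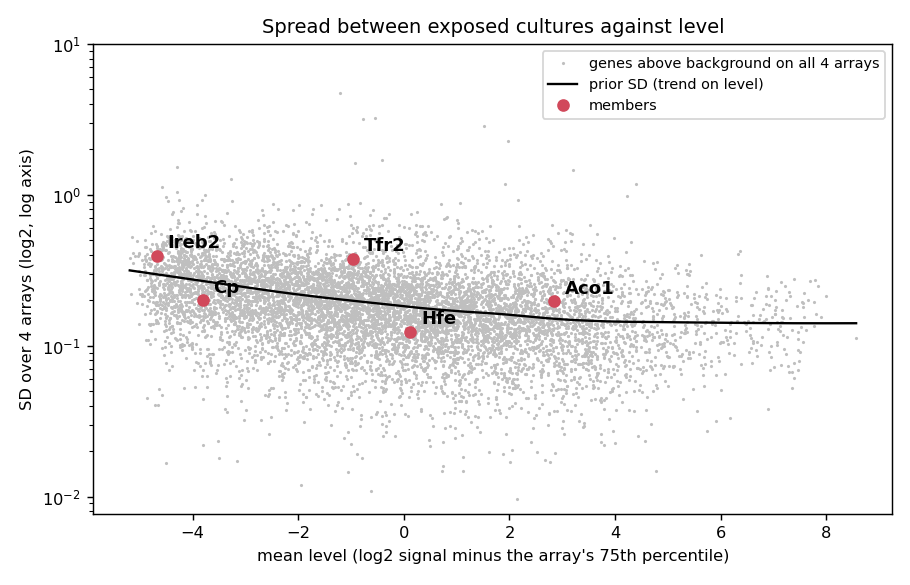
SD over the 4 arrays (log2, log axis) against mean level for the 8376 genes above background on all arrays, with the trend of SD on level as a line and the 5 tested members as large points. Aco1, Ireb2 and Tfr2 lie above the line and Hfe and Cp below it, all within the cloud of other genes.

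No array was high or low for all members together. Aco1 and Ireb2 were highest on replicate 4, Tfr2 by its brighter probe and Cp by both probes on replicate 1, and Heph on replicate 3. Over all genes above background, the median deviation from the mean of a gene was -0.02, 0.01, -0.03 and 0.07 on replicates 1 to 4. Replicate 4 was the highest array for 36.3% of these genes and replicate 1 for 19.9%. For Ireb2, the member of largest SD among those above background on all arrays, the 3 genes of most similar deviations were Nkx6-3, Sos1 and Anxa3. Their root mean square differences from it over the 4 arrays were 0.03, 0.05 and 0.06, against a median of 0.35 over 8375 genes, which is a description of 4 arrays only.

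**Figure D4:**
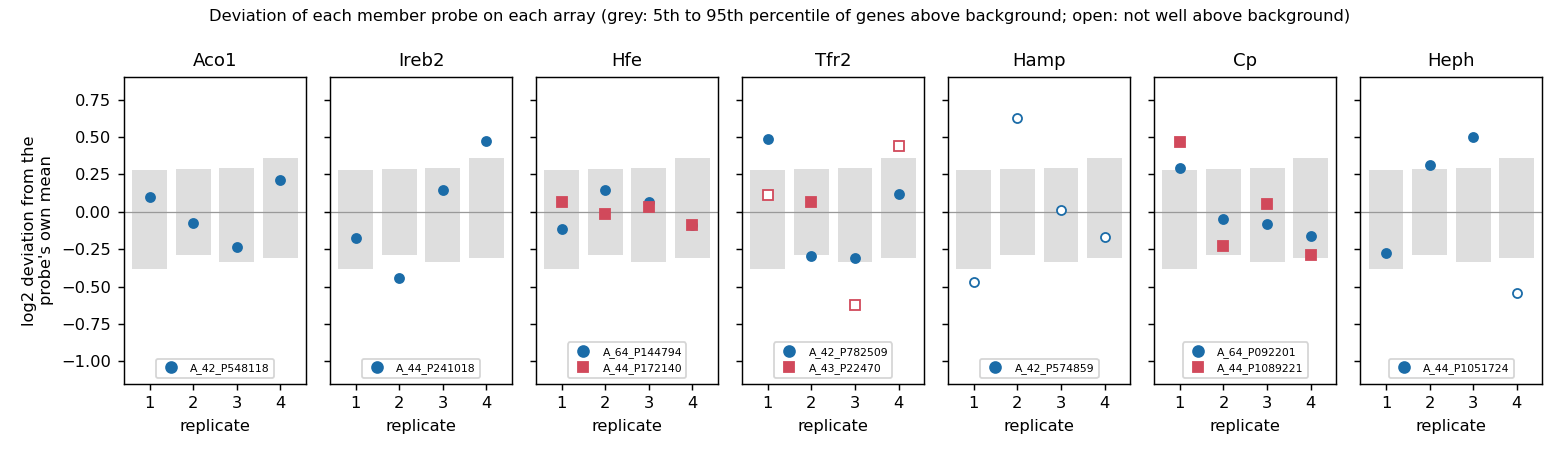
Deviation of each member probe from its own mean on each array (log2, vertical axis; replicate, horizontal axis), with grey bars for the 5th to 95th percentile of genes above background and open symbols for spots not well above background. Tfr2 (A_42_P782509) reached 0.48 and Cp (A_44_P1089221) 0.47 on replicate 1, and Ireb2 0.47 on replicate 4.

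Other genes of the pathway were examined in 6 lists. Of 56 genes listed, 53 were measured. Every array showed 34 of them (64.2%) above background, against 50.5% of all named genes, some arrays 6 more, and no array the other 13. In limma 0 of the 34 passed the test of spread, and 16 of all 8376 genes tested did. Of those 8376 genes, 482 had an unadjusted limma p below 0.05, and of the 34 listed genes 1 did. That gene was Stat3, named after its values were seen, at 1.26, 0.65, 1.19 and 2.08 on replicates 1 to 4 (limma adjusted p 0.211).

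The list of IRP2 removal and iron-sulfur delivery had 9 measured genes, and all 9 were above background on every array, where 50.5% of all named genes were. No probe matched Pcbp1, the remaining gene of that list, or Fbxl5 itself. They include the ligase parts Skp1 (3.43 ± 0.09, SD, n = 4), Cul1 (0.04 ± 0.12) and Rbx1 (3.95 ± 0.07). Of 10 genes listed as having mRNAs with iron-responsive elements, every array showed 6 above background (60%), against 50.5% of all named genes. No element was looked for in the rat sequences, and splice forms were not separated. The 6 genes included Fth1 (7.56 ± 0.19), the heavy ferritin chain, and Ftl1 (7.77 ± 0.13), the light chain. They also included Tfrc, which encodes the transferrin receptor, at 1.14, 0.92, 1.15 and 1.60 on replicates 1 to 4. The ferroportin gene Slc40a1, the erythroid haem synthesis gene Alas2 and the hypoxia factor Epas1 were above background on none.

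Genes of the routes that lead to hepcidin in hepatocytes were examined next. The BMP-SMAD route had 18 measured genes, 9 above background on every array, 3 on some arrays and 6 on none, a share close to the 50.5% of all named genes. The ligand gene Bmp6, the co-receptor gene Hjv, the receptor genes Bmpr1a, Acvr1 and Acvr2a, and Smad9 were above background on none. The receptor gene Bmpr2 lay at -4.27 ± 0.20 and the signal transducer Smad1 at -1.19 ± 0.17. Bmp2 was above background on 1 array, at -4.63 on replicate 4, against -7.86, -7.89 and -7.97 on replicates 1 to 3, where it was not. Of 8 genes of the IL-6-STAT3 route, every array showed 6 above background (75%), against 50.5% of all named genes. The 6 genes included the receptor parts Il6r (-1.39 ± 0.23) and Il6st (-1.59 ± 0.30) and the kinase Jak1 (2.62 ± 0.21). The ligand gene Il6 and Cebpa, a transcription factor needed for hepcidin expression in liver, were above background on none.

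Among 4 partners of HFE and TFR2, beta-2-microglobulin (B2m, 5.71 ± 0.08) and Tfrc were above background on all arrays, Tf on replicate 2 alone, at -5.07, and Hjv on none. The share on all arrays was 50%, against 50.5% of all named genes. Set beside the latter share, 3 of 7 genes (42.9%) in the list of ferroxidase and copper genes were above background on all arrays. These were the copper pump Atp7a (-1.40 ± 0.35), the copper chaperone Atox1 (2.98 ± 0.15) and, named after its values were seen, the metalloreductase Steap3. The second copper pump, Atp7b, was above background on 3 arrays, at -4.77, -4.63 and -4.91 on replicates 1 to 3, and its measured value on replicate 4 was -5.23. Slc40a1, the hephaestin-like gene Hephl1 and the copper importer gene Slc31a1 were above background on none.

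**Figure D5:**
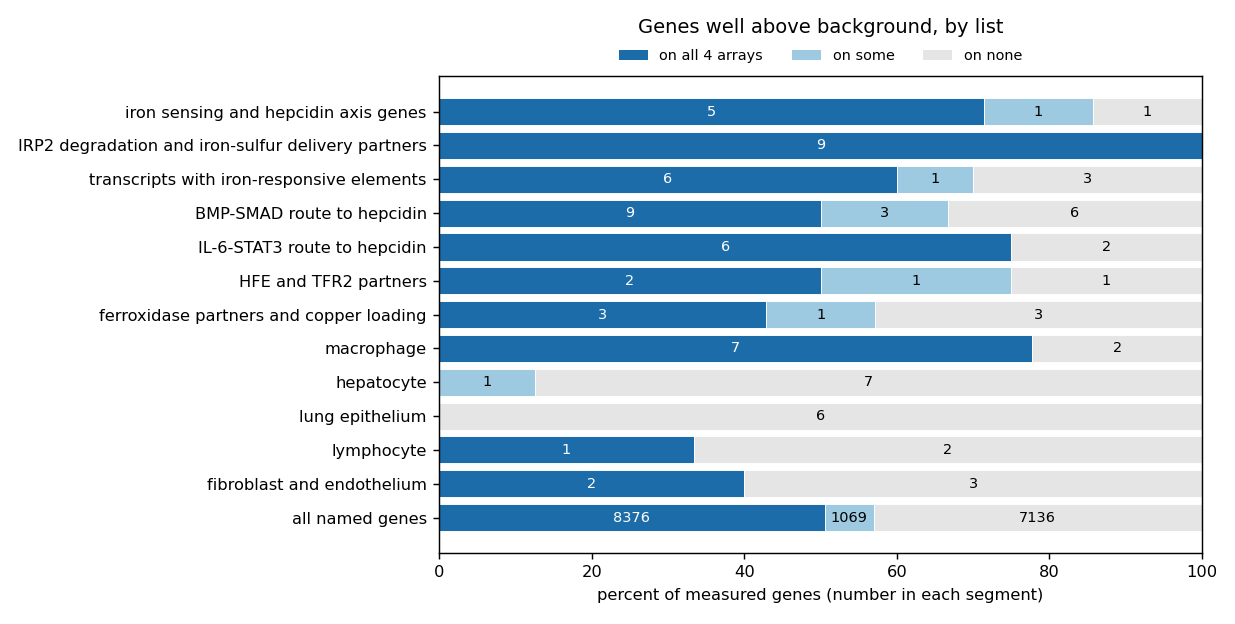
Share of measured genes (percent, horizontal axis) well above background on every array, on part of them or on none, for the 7 measured members, the 6 pathway lists, 5 marker lists and all named genes, with the number of genes in each segment. The segment on all arrays holds 5 of the 7 members, 9 of 9 IRP2 and iron-sulfur partners, 0 of 8 hepatocyte markers and 50.5% of all named genes.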

How the data were processed

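Total RNA of 4 exposed NR8383 cultures was labelled with Cy3 and hybridised to 1 Agilent rat array each, per the labels' protocols. The deposited spot intensity values were written by Agilent Feature Extraction, of which the submitters' processing notes name version 11.0.1.1. They are background-subtracted and spatially detrended within an array, with no scaling between arrays, per the file headers. The deposited flags and spot errors come from the same software. What normalization between arrays the authors applied is not given in the sources used.

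Control spots (4259) were left out, as were outlier spots where another spot of the probe remained. Log2 signal was set relative to the 75th percentile of the 58717 non-control spots, outliers left out, with the mean taken over repeat spots. A probe with several spots was above background where the majority of them were. Accessions were matched without version to the RefSeq table of GRCr8, which named 21109 probes; the array grid is annotated on rn4. A gene was represented by its probe above background on most arrays, ties going to the brighter. The test of spread used R 4.3.3 and limma 3.58.1 (robust prior, trend on level, 9.16 prior degrees of freedom, upper-tail F test, Benjamini-Hochberg over 8376 genes). The script was tested on simulated data, where it recovered 61% of genes with an SD raised 5-fold and 92% of those raised 10-fold. Members, lists and tests were chosen with earlier results of these data known. The text names all members, the listed genes above background on no array, the first 3 others of each list with values, and 3 genes of like pattern. The number of arrays limits the precision. The labels call the cultures biological replicates. No pair of arrays held identical values. The files hold median and not mean spot signals, so the normexp alternative (offset 50) used the median spot and local background intensity in place of the planned mean.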

Additional observations from a re-analysis of the deposited data

Results flagged for a closer look

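Among 60 sets of 4 array values, those of the 10 member probes and of 50 pathway and marker genes above background on at least 1 array, 5 sets had an array far from the other 3. All 5 are listed genes, and none of the 10 member probes was among them. Chance marks about 1 set in 20. The distance is the gap from the outlying array to its nearest neighbour as a share of the whole range, so it can be large where arrays differ little. Bmp2 stood at -4.63 on replicate 4, where it was well above background, and at -7.97 to -7.86 on the other arrays, where it was not (gap 0.967). The size of that gap has no meaning beyond this, because 3 of its 4 values lie at the floor. Ciao1, which encodes a part of the cytosolic iron-sulfur targeting complex, was 0.91 on replicate 1 and at least 1.06 elsewhere (gap 0.901). Slc11a2, the iron importer DMT1, was -0.31 on replicate 3 and at least 0.16 elsewhere (gap 0.900). Gdf15, a stress cytokine, was 1.38 on replicate 4, against 0.97, 1.004 and 0.94 on replicates 1 to 3 (gap 0.854). Steap3 was -3.81 on replicate 3 and at least -3.71 elsewhere (gap 0.836). The SDs of Ciao1 and Steap3 were only 0.491 and 0.199 times that of genes of their level. For Slc11a2 and Gdf15 this ratio was 1.38 and 1.23. Listed genes above background on no array were left out, since values at the floor have no order. Hamp, above background on no array, was kept in the count as a member probe.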

How the results depend on the processing

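The count of members above background on all arrays was 5 of the 7 measured, and that of all named genes was 8376 of 16581. The member count was 7 with the positive and significant mark, which 59.0% of all named genes carried on all arrays. It was 6 with at least 1 or at least 3 arrays required or without replicate 4 (Heph then counts). Of all named genes 9445, 8729 and 8644 met these rules, in that order. The member count was 5 without each of replicates 1, 2 and 3, where 8425, 8394 and 8395 of all named genes counted. It was 4 when every probe of a gene had to pass, an alternative chosen after seeing the data. In the limma test of spread, 0 members passed under every alternative that was run, with a lowest member adjusted p between 0.429 (no filter on dim probes, Tfr2) and 0.989 (prior not robust). The count of all genes that passed was 16, and it was 157 with normexp, 370 with no filter on dim probes, 25 with outlier spots kept, 10 with a prior that was not robust, 5 with a constant prior and 7 without replicate 2; the cause was not tested. The median range over arrays of the 5 members was 0.45, and 0.34 to 0.60 under the alternatives. Mean levels of the 10 probes moved by less than 1 SD with quantile normalization, cyclic loess and without any 1 replicate. All 10 moved with the percentile taken over probes above background, which lowers every level by construction. With normexp 8 moved, and Hamp was -3.58 in place of -6.28. Keeping outlier spots changed only the percentile for these probes, since no member spot carried an outlier mark. It lowered every member level by a like amount, such as Aco1 to 2.66 from 2.84. Only the 2 Hfe probes, those of smallest SD, then counted as moved (probe A_64_P144794 at -0.06 in place of 0.12). For Ireb2, Hamp, Heph, Cp and the second Tfr2 probe the low signal limits what can be read. No paired analysis was possible because only exposed cultures were analysed here.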
